A study of Mus musculus with 6 samples.

Results

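The secreted Wnt antagonists measured here were the secreted Frizzled-related proteins Sfrp1, Sfrp2, Sfrp4, Sfrp5 and Frzb, the Dickkopf proteins Dkk1, Dkk2 and Dkk3, and Wif1. These 9 genes were taken by the gene names of the array, where each had 1 probe and each probe 1 spot, out of 55681 probes and 34797 gene names. They were chosen by their log2 values in TIA1 KO MEF, where Sfrp2 had the largest increase of all genes, so every comparison that uses the TIA1 KO arrays is given as a description, without p-values. Counts of genes past the thresholds in these comparisons come from the same kind of fit, are given beside the share of all genes, and support nothing. TIAR KO MEF were compared with WT MEF by a test, on the same WT arrays. The WT values thus also entered the choice, and the p-values of the members, Sfrp2 above all, are not independent of it.

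The cells were immortalized murine embryonic fibroblasts (MEF), fibroblast lines derived from mouse embryos, and no group received a treatment. WT MEF were of the W4 background, MEF with a knock-out of TIA1 (TIA1 KO MEF) were of the BALB/c background and MEF with a knock-out of TIAR (TIAR KO MEF) were C57BL/6. TIA1 and TIAR are related RNA-binding proteins that control splicing and translation. Total RNA of 2 samples per genotype was hybridized to 6 single-colour arrays of 1 slide. Genotype, strain and immortalized line cannot be told apart in this design, and the TIA1 KO arrays also had a slide row of their own.

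Wnt ligands bind Frizzled receptors and the co-receptors Lrp5 and Lrp6 at the cell surface, and β-catenin then accumulates and acts with the Tcf and Lef factors in the nucleus. Secreted antagonists act before this step. The Sfrp proteins carry a cysteine-rich domain like that of the Frizzled receptors and bind Wnt ligands, as does Wif1 through a domain of another kind, whereas Dkk1 and Dkk2 bind Lrp5 and Lrp6 together with the Kremen proteins. Several of these genes are known from mesenchymal cells, where they are expressed in patterns that depend on the embryonic origin of the tissue.

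The genes of the knocked-out proteins were read first. The brightest of 3 Tia1 probes had log2 intensities of 10.72 and 8.54 in WT, 7.87 and 8.44 in TIA1 KO and 9.56 and 9.58 in TIAR KO MEF, so that the lower WT array lay close to the TIA1 KO arrays. The 3 Tia1 probes did not give the same order of the groups, and one of them, at 7.44 and 7.25 in WT MEF, was higher in TIA1 KO MEF (7.88 and 8.54). The remaining one was lower in TIA1 KO (7.57 and 8.65) than in WT MEF (9.56 and 9.90) without overlap, and was at 9.98 and 8.63 in the TIAR KO line. Both Tial1 probes, which measure the gene of TIAR, were lower on the TIAR KO arrays (10.00 and 9.65 against 11.71 and 11.09 in WT MEF for the probe measured on all 6 arrays). The other, brighter one had no value on the first WT array, so that WT MEF rested on 1 array (13.22, against 9.57 and 11.60 in TIAR KO MEF). Its log2 fold change was -2.63, and no test is read from it. Whether any of these probes lies in a deleted part of its gene is not given in the sources used here. Gapdh, a glycolytic enzyme often used as a reference, was at 18.55 and 18.66 in WT, 18.47 and 18.66 in TIA1 KO and 18.65 and 18.74 in TIAR KO MEF.

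The arrays differed in how much signal stood clear of background. In WT MEF 23531 and 26254 probes were well above background, against 24754 and 25985 in TIAR KO MEF and 16000 and 19920 in TIA1 KO MEF. The first TIA1 KO array had a median raw intensity of 458.1 and negative control spots at 195.7, against 119.5 to 217.6 and 88.55 to 118.9 on the other arrays. No spot was saturated. All 9 antagonists were near background on both WT arrays, which means that their increases in the KO lines are given as a lower bound ("at least") in addition to the measured difference. For this bound the WT mean was replaced by the lowest signal that the software still rated as well above background on each WT array, or by the probe's own signal where that was higher. This lowest signal, 7.183 and 6.591 on the WT arrays, is not a strict detection limit. The probe of Emr1, for example, was at 7.42 and 7.31 there and was not rated well above background. "At least" is thus meant relative to this signal, and a true increase could be smaller. The bound belongs to the main normalisation with all arrays, and values from other settings could fall below it. Levels are normalised log2 intensities of a probe and are not compared between genes.

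As sequence context, RefSeq promoters (GRCm38.p6) were found for 6 of the 9 genes, namely Sfrp2, Sfrp5, Frzb, Dkk1, Dkk2 and Wif1. The 250 bases before the start are printed for Sfrp2 and Dkk2, whose RNAs stood high in TIA1 KO MEF, and for Dkk1, which stayed near background in all 3 lines. Capitals mark matches, on either strand, to TATAAA (an element of the core promoter), to CCAAT (bound by the factor NF-Y), to GGGCGG (bound by the factor Sp1) and to CTTTGA (the core letters of Tcf and Lef sites). The lines are Sfrp2 at chr3:83766071-83766320 (plus strand), Dkk2 at chr3:132085042-132085291 (plus strand) and Dkk1 at chr19:30549497-30549746 (minus strand).
Sfrp2: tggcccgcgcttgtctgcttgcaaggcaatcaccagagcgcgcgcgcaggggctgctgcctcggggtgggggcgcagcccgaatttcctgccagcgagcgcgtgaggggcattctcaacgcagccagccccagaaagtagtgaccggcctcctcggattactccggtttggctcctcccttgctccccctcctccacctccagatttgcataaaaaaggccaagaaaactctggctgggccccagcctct
Dkk2: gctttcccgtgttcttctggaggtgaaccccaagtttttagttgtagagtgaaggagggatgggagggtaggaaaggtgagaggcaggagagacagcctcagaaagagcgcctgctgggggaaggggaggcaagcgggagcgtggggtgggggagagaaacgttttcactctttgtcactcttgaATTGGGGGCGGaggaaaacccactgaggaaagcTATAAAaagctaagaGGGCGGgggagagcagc
Dkk1: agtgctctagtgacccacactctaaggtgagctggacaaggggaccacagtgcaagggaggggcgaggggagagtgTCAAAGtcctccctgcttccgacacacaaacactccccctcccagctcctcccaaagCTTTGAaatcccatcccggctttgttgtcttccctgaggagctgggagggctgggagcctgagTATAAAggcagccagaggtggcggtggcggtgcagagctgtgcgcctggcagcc
The Sfrp2 window held none of these 4 motifs. The Dkk2 window held TATAAA 32 bases and CCAAT 65 bases before the start and GGGCGG at 60 and 17 bases. The Dkk1 window held TATAAA at 54 bases and CTTTGA at 174 and 117 bases before the start. Of 32851 promoter windows of this length, 12.4% held TATAAA, 33.8% CCAAT, 32.7% GGGCGG and 13.8% CTTTGA. The GC content was 63.6% for Sfrp2, 55.6% for Dkk2 and 60.8% for Dkk1, against a median of 52.4% over all windows. Since the Sfrp2 window held none of these 4 motifs, it could share none with Dkk2, and nothing is read from this.

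The probes of the family were distinct from each other and from the rest of the array. The longest run of bases that any of the 9 probes, each 60 bases long, shared with a probe of another gene was 16 bases, for Sfrp2, and the longest run shared between any 2 of the 9 was 9 bases. Their GC content lay between 35.0% and 45.0%.

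Sfrp1, Sfrp2 and Sfrp5 form one branch of the Sfrp family, and Sfrp2 stood out. Its probe (chr3:83577864-83577923, mm9) had log2 intensities of 6.39 and 6.40 in WT, 15.13 and 15.42 in TIA1 KO and 7.19 and 7.48 in TIAR KO MEF. The raw intensities were 120.8 and 114.9 in WT, 43500 and 48760 in TIA1 KO and 137.8 and 136.3 in TIAR KO MEF. Both TIA1 KO arrays were far above all others, and no group overlapped with another on the normalised scale. The log2 fold change in TIA1 KO MEF was 8.88 ± 0.18 (SE), an increase of at least 336-fold, which ranked 1 of 34797 genes, as known from the choice of the members. In TIAR KO MEF the log2 fold change was 0.94 ± 0.16 (limma, adjusted p = 0.0302), a fold change of 1.92 that stayed below the 2-fold threshold and rested on a spot well above background on 1 of the 2 arrays. The bound for this increase was 1.37-fold, from the mean of both TIAR KO arrays, and so rests in part on the array that was not well above background. Sfrp2 passed both thresholds with a background offset of 16 (1.20, adjusted p = 0.0279) and with the processed signal (1.89, adjusted p = 0.0362).

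Sfrp1, which like Sfrp2 binds Wnt ligands outside the cell, showed the same order of groups with a smaller difference. Its log2 intensities (chr8:24559438-24559497) were 6.61 and 6.57 in WT, 9.01 and 9.88 in TIA1 KO and 7.09 and 7.32 in TIAR KO MEF. Only the TIA1 KO arrays were well above background. The log2 fold change in TIA1 KO MEF was 2.85 ± 0.33 (SE), at least 5.89-fold. In TIAR KO MEF it was 0.62 ± 0.16 (limma, adjusted p = 0.0866), which did not pass the test. Sfrp5 (chr19:42272509-42272568) was well above background on none of the 6 arrays, with values between 6.92 and 7.81. Its WT and TIAR KO values overlapped and both TIA1 KO values (7.81 and 7.44) lay above them. It had a log2 fold change of -0.09 ± 0.20 in TIAR KO MEF (limma, adjusted p = 0.874).

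Sfrp4 and Frzb form the other branch. Sfrp4 was the antagonist that passed both thresholds in TIAR KO MEF. Its log2 intensities (chr13:19724488-19724547) were 6.40 and 6.38 in WT, 9.80 and 9.80 in TIAR KO and 9.02 and 8.41 in TIA1 KO MEF, so both KO lines lay above WT without overlap. The log2 fold change in TIAR KO MEF was 3.41 ± 0.14 (SE; limma, adjusted p = 0.000367), an increase of at least 7.55-fold, which ranked 224 of 34797 genes. In TIA1 KO MEF it was 2.33 ± 0.26, with a bound of 3.55-fold and with 1 of the 2 arrays well above background. This bound used the mean of both TIA1 KO arrays, so it rests in part on the first one, which was not well above background. Without that array the log2 fold change was 2.02. The raw intensities of the TIA1 KO arrays were 1447 and 445.6, on arrays whose own backgrounds differed. Frzb, also known as Sfrp3 and first described in cartilage, was well above background on none of the arrays (chr2:80252582-80252641, 6.57 to 6.84), with a log2 fold change of 0.05 ± 0.16 in TIAR KO MEF (limma, adjusted p = 0.918).

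**Figure D1:**
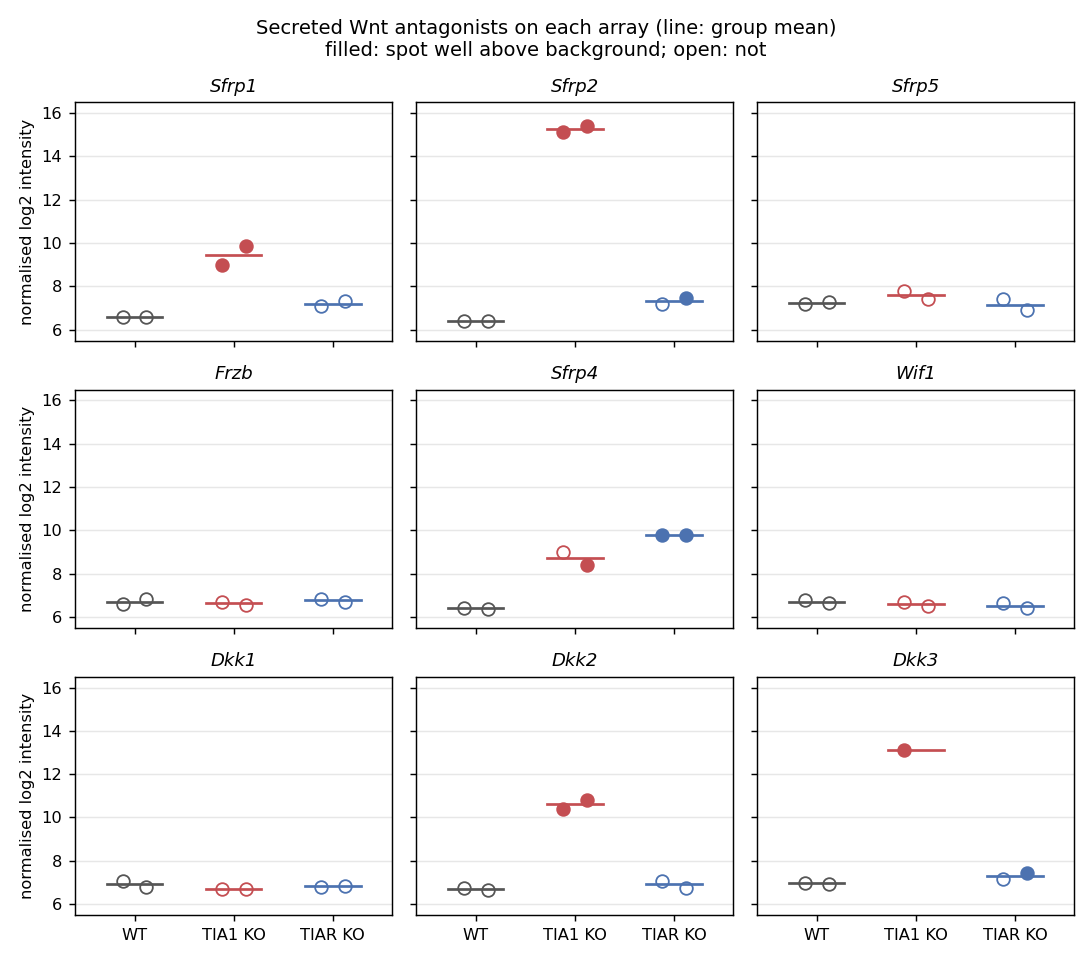
Normalised log2 intensity (vertical axis) of the 9 antagonist probes on the 2 arrays of each group (points; filled where the spot was well above background) with the group mean (line). Sfrp2 stood at 15.13 and 15.42 in TIA1 KO MEF, Dkk3 shows 1 point in TIA1 KO MEF because its other spot was left out, and Sfrp4 was higher in TIAR KO (9.80 and 9.80) than in TIA1 KO MEF (9.02 and 8.41).

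Among the Dickkopf genes, Dkk2 and Dkk3 were high in TIA1 KO MEF and Dkk1 was not. Dkk2, which can inhibit or weakly activate Wnt signalling depending on the cell, had log2 intensities (chr3:131842357-131842416) of 6.74 and 6.65 in WT, 10.38 and 10.82 in TIA1 KO and 7.07 and 6.75 in TIAR KO MEF. The log2 fold change in TIA1 KO MEF was 3.90 ± 0.21 (SE), at least 12.9-fold. WT and TIAR KO MEF were near background on all 4 arrays, and their log2 difference of 0.21 ± 0.17 did not pass the test (limma, adjusted p = 0.595).

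Dkk3 is the divergent member of its family and is not known as a ligand of Lrp5 or Lrp6. Its log2 intensities (chr7:119259556-119259615) were 6.99 and 6.94 in WT, 13.10 on the first TIA1 KO array and 7.14 and 7.45 in TIAR KO MEF. The spot on the second TIA1 KO array carried an outlier flag and was left out of the fit, so the value of TIA1 KO MEF rested on 1 array; the raw intensity of that spot was 7862, against 11010 on the first array and 129.7 to 153.7 on the WT and TIAR KO arrays. With this single array the log2 fold change was 6.14 ± 0.21 (SE), and the bound on this array was 65.9-fold. With the flagged spot kept the log2 fold change was 5.99, which lies below that bound, and with the common-median scaling it was 4.93. In TIAR KO MEF the log2 fold change was 0.33 ± 0.17 (limma, adjusted p = 0.372).

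Dkk1, the classical Lrp5 and Lrp6 inhibitor and itself a target of β-catenin in many tissues, was near background on all 6 arrays (chr19:30621424-30621483, 6.69 to 7.05). Wif1, which binds Wnt ligands directly, was near background too (chr10:120537079-120537138, 6.41 to 6.78). Neither passed the test in TIAR KO MEF, where the log2 fold change was -0.09 ± 0.16 for Dkk1 (limma, adjusted p = 0.83) and -0.20 ± 0.16 for Wif1 (limma, adjusted p = 0.592). The probes of the 4 genes Sfrp5, Frzb, Dkk1 and Wif1 thus gave no signal well above background in any line, and a change below that limit could not be seen. The probe positions are those of the scanner files on mm9, and exons and introns of that build were not looked up here.

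**Figure D2:**
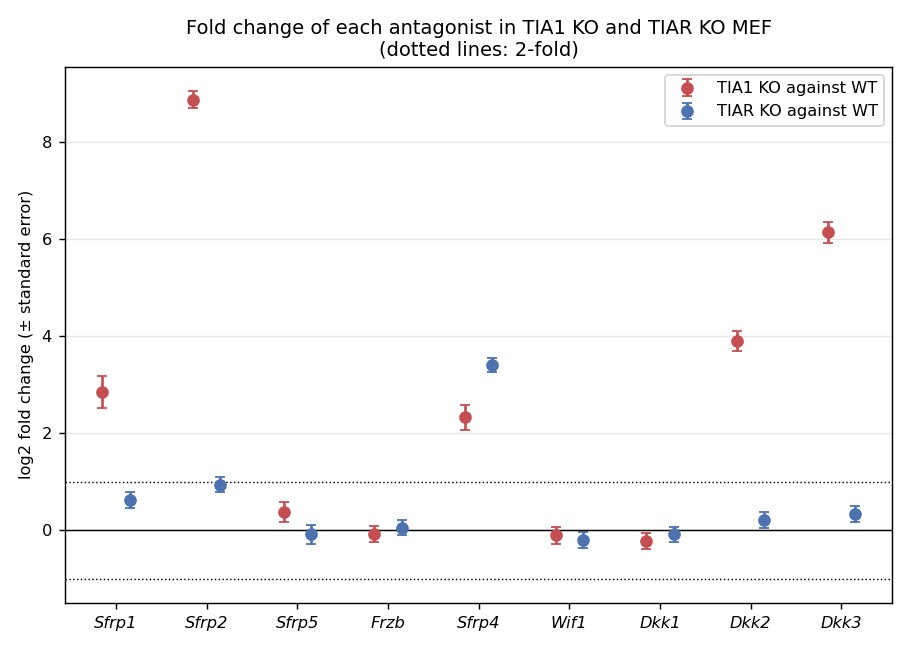
Log2 fold change (vertical axis, with standard errors of the limma fit, 2 arrays per group except Dkk3 in TIA1 KO with 1) of each antagonist in TIA1 KO and TIAR KO MEF against the same WT arrays. The error bar of Dkk3 in TIA1 KO MEF holds no spread of that group. Sfrp2 reached 8.88, Dkk3 6.14 and Dkk2 3.90 in TIA1 KO MEF, while in TIAR KO MEF Sfrp4, at 3.41, lay above the 2-fold line and the other 8 did not.

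The thresholds for a call were a fold change above 2 and an adjusted p under 0.05. Of the 9 antagonists 1 was called higher and 0 lower in TIAR KO MEF, where 7.18% of all genes were called in either direction and 4.36% higher. The median log2 fold change of the 9 was 0.21, against -0.01 over all genes. The thresholds were passed by 5 of the 9 in TIA1 KO MEF, all higher, where 4.51% of all genes passed in either direction and 2.88% higher; since the members were chosen with this contrast known, and Dkk3 among the 5 rested on 1 TIA1 KO array, nothing is read from that count. Their median log2 fold change was 2.33, against -0.07 over all genes. When either WT array was left out, 0 of the 9 and 0.00% of all genes passed in TIA1 KO MEF, whereas the log2 fold changes themselves ran from 8.87 to 8.89 for Sfrp2 and from 3.86 to 3.95 for Dkk2. With the common-median scaling Sfrp2 stood at 7.76, Dkk2 at 3.26 and Sfrp4 at 1.71 in TIA1 KO MEF, each below its bound given above.

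Directly between the KO lines, as a description, TIAR KO minus TIA1 KO was -7.94 for Sfrp2, -5.81 for Dkk3, -3.69 for Dkk2 and -2.24 for Sfrp1 on the log2 scale, and 1.09 for Sfrp4. Of these, Sfrp2, Dkk3 and Dkk2 passed the thresholds (3 of 9, all lower, where 4.18% of all genes passed in either direction and 2.12% lower), and nothing is read from that count either. By their means the lines ran WT, TIAR KO, TIA1 KO for Sfrp1 and Sfrp2, and WT, TIA1 KO, TIAR KO for Sfrp4. The neighbours WT and TIAR KO did not pass the test for Sfrp1 and Dkk2 and stayed below the 2-fold threshold for Sfrp2, and the neighbours TIA1 KO and TIAR KO did not pass the thresholds for Sfrp4.

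The rest of the pathway was read from lists of genes by role, 1 probe per gene (the brightest). Of 11 further inhibitors or modulators of the pathway, secreted or in the membrane, and Dkk co-receptors, 3 rose and 0 fell in TIAR KO MEF, where 4.36% of all genes rose and 7.18% were called in either direction. Shisa2, which retains Frizzled receptors inside the cell, was at 6.68 and 6.63 in WT and at 8.37 and 8.57 in TIAR KO MEF (log2 fold change 1.81 ± 0.15, at least 2.95-fold, adjusted p = 0.00291), and near background in TIA1 KO MEF. Tpbg, a membrane protein that modifies Lrp6 signalling, had a log2 fold change of 1.21 ± 0.16 (adjusted p = 0.0138) in TIAR KO and 1.53 ± 0.19 in TIA1 KO MEF. Notum, an esterase that removes the lipid of Wnt ligands, had one of 1.08 ± 0.16 (adjusted p = 0.0173) in TIAR KO MEF. In TIA1 KO MEF Notum was at 0.92 ± 0.15, just below the 2-fold threshold, and at -0.61 with the common-median scaling. The call of Tpbg was lost without WT replicate 1 (adjusted p = 0.0552), TIAR KO replicate 1 (0.0739) or TIAR KO replicate 2 (0.0741), and that of Notum without WT replicate 1 (0.0649), WT replicate 2 (0.0718) or TIAR KO replicate 2 (0.082). Both were also lost with the common-median scaling (Tpbg at 0.78, adjusted p = 0.0624, and Notum at 0.66, below the 2-fold threshold) and with the processed signal (Tpbg at 1.25, adjusted p = 0.102, and Notum at 0.84, adjusted p = 0.218). Kremen1, the Dkk co-receptor, was well above background on all 6 arrays and was not called (0.46 ± 0.26 in TIAR KO MEF, adjusted p = 0.422), and Kremen2 was near background on all 6. Of the 11, 1 passed the thresholds in TIA1 KO MEF, where 4.51% of all genes did, namely Tpbg, which stood at 0.00 there with the common-median scaling.

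Wnt ligands, which the Sfrp proteins bind, were called in both lines. Of 19 ligands, 3 rose and 1 fell in TIAR KO MEF, where 7.18% of all genes were called. Wnt5a, a ligand known mostly for signalling without β-catenin, was at 6.70 and 6.52 in WT, 11.47 and 10.56 in TIAR KO and 10.75 and 10.69 in TIA1 KO MEF. Its log2 fold change was 4.4 ± 0.32 in TIAR KO MEF (at least 17.5-fold, adjusted p = 0.0018) and 4.11 ± 0.16 in TIA1 KO MEF, so both KO lines stood clear of WT. Wnt4, a ligand of kidney and gonad development, rose in TIAR KO MEF by 2.84 ± 0.15 (adjusted p = 0.000684). Wnt10b, a ligand known to hold back fat cell differentiation, fell there by at least 4.37-fold (log2 fold change -2.29 ± 0.21, adjusted p = 0.0039), while it was higher in TIA1 KO MEF (1.67 ± 0.23). With the common-median scaling Wnt10b stood at 0.72 in TIA1 KO MEF, below the 2-fold threshold, and Wnt5a at 2.95. The thresholds were passed by 7 of the 19 in TIA1 KO MEF, all higher (2.88% of all genes), with Wnt5b at 5.0 ± 0.16 and Wnt7a at 4.2 ± 0.20 (4.07 and 3.39 with the common-median scaling). Wnt5b (0.98 ± 0.14, adjusted p = 0.0183) and Wnt7a (0.90 ± 0.15, adjusted p = 0.0288) stayed below the 2-fold threshold in TIAR KO MEF, and passed it with a background offset of 16 (1.16, adjusted p = 0.0243, and 1.19, adjusted p = 0.0282).

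Of 15 Wnt receptors and co-receptors, 6 rose and 0 fell in TIAR KO MEF, against 4.36% of all genes that rose there. Of the 15, 13 were well above background in WT MEF, and with probes well above background only 14.2% of all genes were called in TIAR KO MEF. Ror2, the tyrosine kinase receptor of Wnt5a, had a log2 fold change of 2.13 ± 0.19 (adjusted p = 0.00372), and the Frizzled receptors Fzd7 and Fzd1 had 1.96 ± 0.16 (adjusted p = 0.00256) and 1.92 ± 0.14 (adjusted p = 0.00188). The thresholds were passed by 5 of them in TIA1 KO MEF, all higher (2.88% of all genes, and 12.8% in either direction with probes well above background only), led by Ror2 at 2.48 ± 0.20, Fzd1 at 2.44 ± 0.15 and Fzd6 at 1.90 ± 0.17. With the common-median scaling, where the median of all probes in the TIA1 KO line was -0.68, they stood at 1.08, 0.89 and 0.37. The co-receptors Lrp5 and Lrp6, on which Dkk1 and Dkk2 act, were well above background on all 6 arrays and were not called, at 0.37 ± 0.18 (adjusted p = 0.355) and 0.07 ± 0.35 (adjusted p = 0.946) in TIAR KO MEF. In TIA1 KO MEF, as a description, they were at 0.33 ± 0.15 and 1.13 ± 0.16. Lrp6 (12.66 and 12.51, against 11.53 and 11.39 in WT MEF) was thus above 2-fold there but did not pass both thresholds.

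The R-spondin module, whose secreted ligands strengthen Wnt signalling by removing the ligases Rnf43 and Znrf3 from the membrane, had 2 of 9 genes higher and 1 lower in TIAR KO MEF (7.18% of all genes in either direction). Rspo3 was at 7.54 and 7.77 in WT, 7.16 and 7.05 in TIA1 KO and 11.85 and 11.74 in TIAR KO MEF. Its log2 fold change was 4.14 ± 0.16 in the TIAR KO line (adjusted p = 0.000357). Rspo2 rose by 2.18 ± 0.22 (adjusted p = 0.00536) in TIAR KO MEF and was at 3.30 ± 0.20 in TIA1 KO MEF, where it was the 1 gene of the 9 past the thresholds (4.51% of all genes, or 12.8% with probes well above background only). With the common-median scaling Rspo2 stood at 2.11 in TIA1 KO MEF. Rnf43 fell by 2.13 ± 0.25 on the log2 scale in TIAR KO MEF (adjusted p = 0.00831), and this call was lost without TIAR KO replicate 1 (-1.96, adjusted p = 0.0531).

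Of 12 genes known as targets or nuclear factors of the pathway, 3 rose and 0 fell in TIAR KO MEF (4.36% of all genes rose), and 3 passed the thresholds, all higher, in TIA1 KO MEF (2.88%). In both lines these were Wisp2, Lef1 and Wisp1. Wisp2, a secreted matricellular protein of mesenchymal cells, was at 6.71 and 6.66 in WT, 12.13 and 11.82 in TIA1 KO and 12.01 and 12.09 in TIAR KO MEF (5.36 ± 0.14, adjusted p = 0.000186 in TIAR KO MEF). Lef1, the nuclear partner of β-catenin, had a log2 fold change of 3.86 ± 0.21 in TIAR KO MEF (adjusted p = 0.000739) and 3.85 ± 0.24 in TIA1 KO MEF. Wisp1 rose by 1.91 ± 0.14 (adjusted p = 0.00186) in TIAR KO MEF, a call that was lost with the processed signal (1.63, adjusted p = 0.0503), and in TIA1 KO MEF it went from 2.16 to 0.57 with the common-median scaling. Of the feedback targets on this list, Axin2, Nkd1 and Sp5 were near background on all 6 arrays. Nkd2 was well above background on both WT (8.64 and 8.46) and both TIAR KO arrays (8.30 and 8.35). It was well above background on neither TIA1 KO array and was not called in either line. Over the 5 lists, 19 of 66 genes were called in TIAR KO MEF and 17 of 66 passed the thresholds in TIA1 KO MEF, where the shares of all genes were 7.18% and 4.51%, or 14.2% and 12.8% with probes well above background only. The latter count was 0 without either WT array (0.00% of all genes) and 30 without TIA1 KO replicate 2 (21.0% of all genes).

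**Figure D3:**
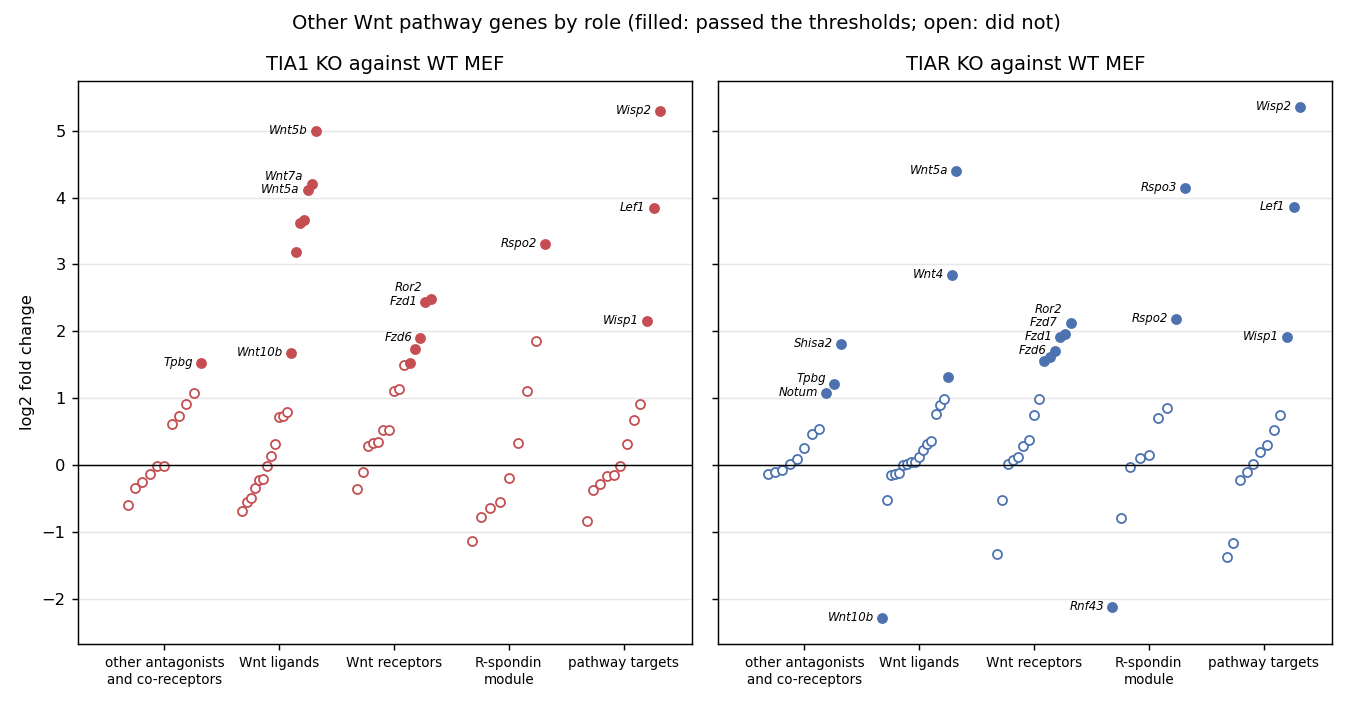
Log2 fold change (vertical axis) of the other Wnt pathway genes by role in TIA1 KO (left) and TIAR KO MEF (right) against WT MEF, each point a gene, filled where it passed the thresholds. Wisp2 (5.29 and 5.36) and Lef1 (3.85 and 3.86) stood at nearly equal heights in the panels, Wnt5b (5.0) stands high on the left, and Rspo3 (4.14) stands high and Wnt10b (-2.29) low on the right. With the common-median scaling, which is not drawn, Wisp2 stood at 3.95 and 5.0 and Lef1 at 2.74 and 3.65.

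The genes whose values over the 6 arrays were nearest to those of Sfrp2 were sought among 19438 other genes with a RefSeq mRNA accession, by the Euclidean distance of log2 values minus the WT mean. They were Efemp1 (a fibulin of the extracellular matrix, distance 0.693), Lrrc32 (a membrane anchor of latent TGF-β, 1.42), Gjb2 (a connexin of gap junctions, 1.42), Fam20a (a pseudokinase of the secretory pathway, 1.51) and Mfap5 (a microfibril protein, 2.05). Efemp1 was at 6.33 and 6.30 in WT, 14.85 and 15.13 in TIA1 KO and 7.74 and 7.34 in TIAR KO MEF. All 5 shared the step in TIA1 KO MEF that defined the search, with log2 fold changes from 7.60 to 8.68. In TIAR KO MEF they ranged from 0.12 for Gjb2 to 1.61 for Fam20a, around the 0.94 of Sfrp2. Since these genes were found by their values on all 6 arrays, no test is given for them.

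The same search for Sfrp4 gave Epdr1 (an ependymin-related glycoprotein, distance 0.442), Gamt (an enzyme of creatine synthesis, 0.639), 9030619P08Rik (0.655), Cacna2d1 (a calcium channel subunit, 0.661) and Foxs1 (a forkhead transcription factor, 0.661). Epdr1 was at 10.06 and 10.14 in WT, 12.47 and 12.40 in TIA1 KO and 13.60 and 13.71 in TIAR KO MEF, with a log2 fold change of 3.55 ± 0.14 in the TIAR KO line and 2.33 ± 0.15 in the TIA1 KO line. Unlike Sfrp4 it was well above background on all 6 arrays. The other 4 had log2 fold changes between 3.24 and 3.35 in TIAR KO MEF.

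**Figure D4:**
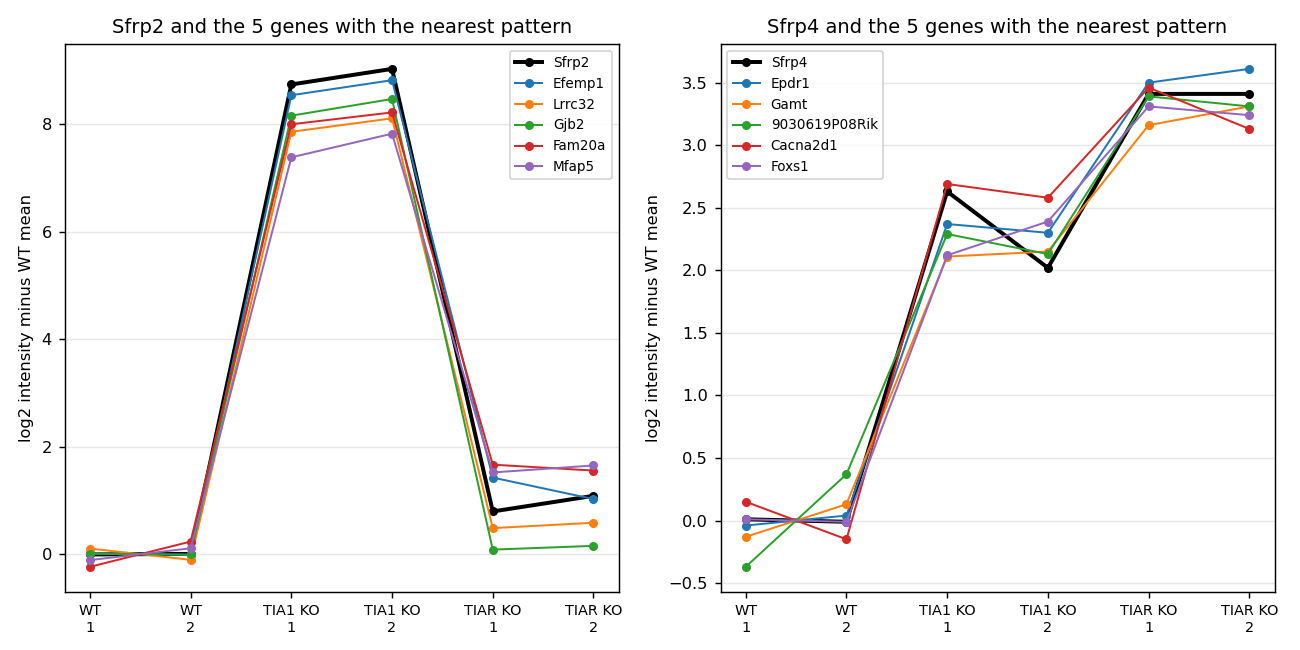
Log2 intensity minus the WT mean (vertical axis) on each of the 6 arrays for Sfrp2 (left, black) and Sfrp4 (right, black) with the 5 genes nearest to each (colours). The genes on the left are all high on both TIA1 KO arrays, with group mean log2 fold changes from 7.60 to 8.88, and those on the right lie above WT in both KO lines, further in TIAR KO MEF.

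Epdr1 was also a neighbour of Sfrp4 on the chromosome: its probe (chr13:19683763-19683822, mm9) lay 40725 bases from that of Sfrp4, and it was found by position as well as by pattern. The probes of Txndc3 and A530099J19Rik, which lay within 100 kb of the Sfrp4 probe on its other side, were well above background on none of the 6 arrays. Near Sfrp2, the probe of Tlr2, a receptor of innate immunity, lay 62480 bases away and did not follow it, with 11.44 and 11.51 in WT, 10.07 and 9.98 in TIA1 KO and 12.60 and 12.58 in TIAR KO MEF. Tlr2 rose in TIAR KO MEF (1.11 ± 0.14, adjusted p = 0.0109) and was at -1.45 ± 0.15 in TIA1 KO MEF. Near Dkk1, the probe of Prkg1, a kinase activated by cyclic GMP, lay 22139 bases away and rose in TIAR KO MEF (1.82 ± 0.14, at least 3.09-fold, adjusted p = 0.00234) while Dkk1 stayed near background. Usp47 and Gm3960 near Dkk3 were not called, and no probe lay within 100 kb of those of Sfrp1 and Dkk2. Probes within 100 kb of those of Sfrp5, Frzb and Wif1 are not named here, and not one of them was called in either KO line.

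Markers of the cell type also differed between the lines, in part in other lines than the antagonists. Of 12 fibroblast markers, 9 rose in TIAR KO MEF and 7 passed the thresholds, all higher, in TIA1 KO MEF, against 7.18% and 4.51% of all genes called in either direction. The log2 of their summed intensity was 19.03 and 19.11 in WT, 20.33 and 20.30 in TIA1 KO and 20.41 and 20.44 in TIAR KO MEF, and the brightest probe was that of S100a4. Pdgfra, a defining receptor of mesenchymal fibroblasts, was near background on the WT arrays (6.37 and 6.40) and stood at 10.05 and 10.23 in TIA1 KO and 11.68 and 11.51 in TIAR KO MEF. Thy1 was at 6.63 and 6.98 in WT, 7.11 and 7.48 in TIA1 KO and 14.84 and 14.74 in TIAR KO MEF, and Lum was near background on all 6 arrays. Vim and S100a4 were high in all 3 lines and were not called. Of the 12 markers 7 were well above background in WT MEF, among them Col1a1 (15.29 and 15.09) and Fn1 (15.34 and 15.15). Thy1 was well above background on 1 WT array and on neither TIA1 KO array. Pdgfra thus lacked signal on both WT arrays, as did the 9 antagonists, and the part of this marker difference in the results was not tested.

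Mesothelial markers stood highest in TIAR KO MEF, apart from Msln. Upk3b (at least 144-fold, log2 fold change 7.48 ± 0.22, adjusted p = 0.000206), Gpm6a (6.29 ± 0.21, adjusted p = 0.000254), Wt1 (4.34 ± 0.20, adjusted p = 0.000488) and Lrrn4 (2.55 ± 0.14, adjusted p = 0.00076) rose in TIAR KO MEF, where Sfrp4 rose too, and Msln fell (-1.62 ± 0.26, adjusted p = 0.0249). Of all genes 7.18% were called in that line. Of these 5, 0 passed the thresholds in TIA1 KO MEF (4.51% of all genes). Their summed log2 intensity was 16.47 and 15.79 in WT, 17.89 and 17.68 in TIA1 KO and 15.68 and 15.53 in TIAR KO MEF, with Msln as the brightest probe. The part of these cells' genes in the Sfrp4 result was not tested, and a difference in the share of a cell type cannot be told apart from a difference in RNA per cell in bulk samples.

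Of 8 epithelial markers, 3 rose in TIAR KO MEF (Krt18 at 2.72 ± 0.14, Cdh1 at 1.58 ± 0.14 and Krt8 at 1.23 ± 0.15) and 2 passed the thresholds in TIA1 KO MEF, Krt8 and Krt19, against 7.18% and 4.51% of all genes in either direction. Their summed log2 intensity was 12.50 and 12.55 in WT, 13.42 and 13.50 in TIA1 KO and 13.12 and 13.01 in TIAR KO MEF, with Krt19 as the brightest probe, and Krt5 and Epcam were well above background on 1 array each. The defining macrophage markers Ptprc, Emr1, Lyz2 and Cd52 were near background on all 6 arrays. Cd68 (10.15 to 11.66), Cd14 (10.91 to 12.55) and Itgam (11.47 to 13.65) were well above background on all 6 and Csf1r (8.81 to 9.66) on 5. Aif1 was well above background on both WT arrays (8.46 and 8.59) and on no KO array. It fell in TIAR KO MEF (-1.43 ± 0.14, limma, adjusted p = 0.00533) and was at -1.98 ± 0.29 in TIA1 KO MEF. Of the 9 on that list, 0 rose and 2, Cd14 and Aif1, fell in TIAR KO MEF, and 1, Itgam, the brightest probe, passed the thresholds in TIA1 KO MEF, against the same shares of all genes. Their summed log2 intensity was 13.50 and 13.42 in WT, 14.39 and 14.21 in TIA1 KO and 13.31 and 13.30 in TIAR KO MEF. Of 6 endothelial markers 0 passed in either line, with summed log2 intensities between 11.55 and 11.95, Kdr as the brightest probe, and Cdh5, Tie1 and Emcn near background on all arrays.

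**Figure D5:**
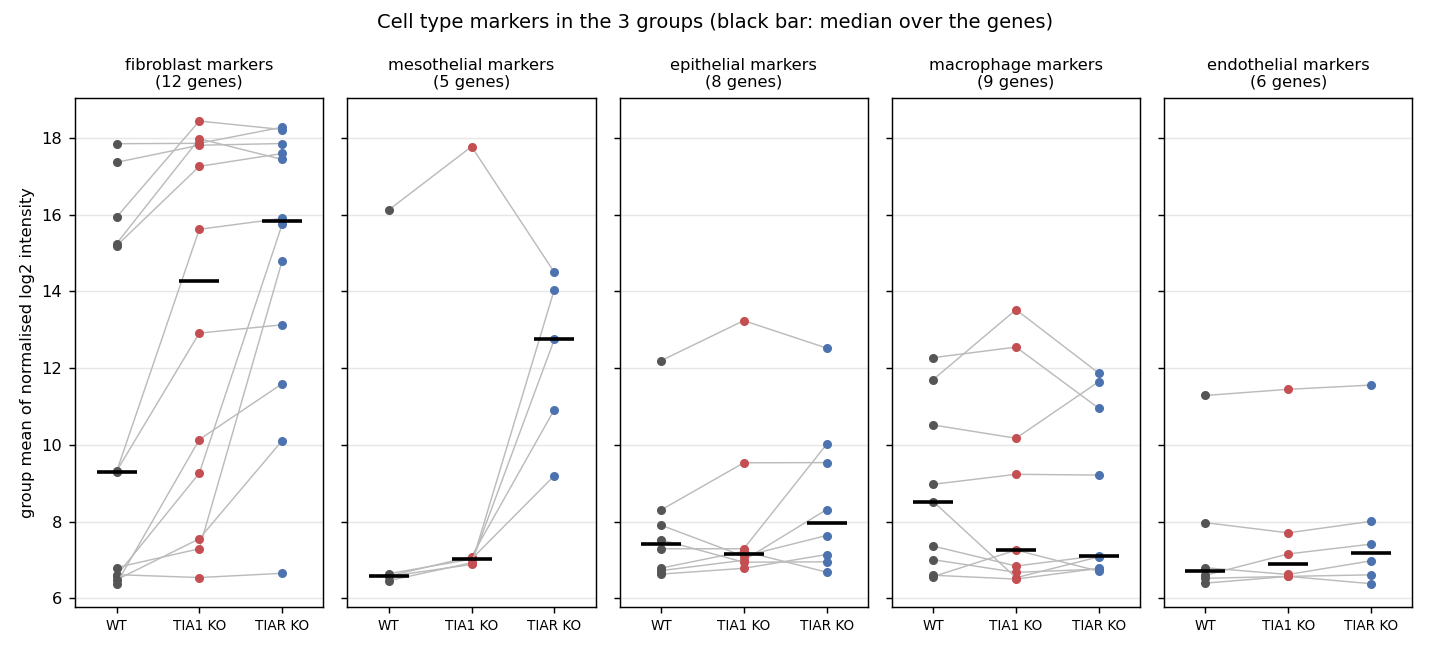
Group mean of the normalised log2 intensity (vertical axis) of each marker gene (points joined by grey lines) in WT, TIA1 KO and TIAR KO MEF for 5 lists of cell type markers, with the median over each list as a black bar. The fibroblast marker Pdgfra (6.37 and 6.40 in WT) stands lower in WT MEF than in both KO lines whereas Lum, Vim and S100a4 differ by at most 0.49 from WT, and of the mesothelial markers Upk3b (log2 fold change 7.48) stands high in TIAR KO MEF and Msln (-1.62) low.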

How the data were processed

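RNA of the 3 MEF lines (2 independent samples each) was labelled with Cy3 and hybridized to SurePrint G3 mouse arrays. The authors deposited scanner files with the intensity of each spot and its local background, not normalized, and quality flags, and a table of normalized log2 values, for which the submitters' notes name limma without a version. Its values and those used here correlated at 0.997 or more on each array.

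Mean intensities were corrected by normexp (offset 50), taken to log2, adjusted by 1 pass of fast cyclic loess and quantile normalized (limma 3.58.1, R 4.3.3). Control and outlier spots were left out and spots of a probe averaged. Each comparison was fitted with limma (lmFit, eBayes) on its 4 arrays, adjusted after Benjamini-Hochberg over 55681 probes, called at adjusted p under 0.05 and fold change above 2. A gene was read from its brightest probe. The fit was tried on simulated WT and TIAR KO values with planted shifts far above 2-fold. This does not cover calls near the threshold, the TIA1 KO arrays or fits with a single array. P-values rest on the spread between 2 samples per group, which eBayes draws towards the spread of all probes. For Sfrp4 the SDs were 0.0175 in WT and 0.000232 in TIAR KO MEF, against an SE of 0.14. The p-values do not measure a spread between independent lines of a genotype.

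The members and all lists were chosen with earlier results of these data known. Named were all members, Tia1, Tial1, Gapdh, up to 3 called genes with the largest change per role list and comparison, the 5 genes nearest to Sfrp2 and Sfrp4, neighbours within 100 kb of Sfrp2, Sfrp4, Dkk1 and Dkk3, and cell type markers. Kremen1, Kremen2, Lrp5, Lrp6, Axin2, Nkd1, Nkd2 and Sp5 were added for their role. Of 12 listed further inhibitors, modulators and co-receptors, 11 were on the array by name. The alternatives were other offsets, scalings, filters, fits and the omission of each array. Figures were drawn with matplotlib.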

Additional observations from a re-analysis of the deposited data

Results flagged for a closer look

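Among the antagonists, pathway genes, markers and neighbours, 52 genes passed the thresholds in at least 1 KO line, and 6 of these lay on opposite sides of the WT mean on both arrays of each KO line. The share of all genes that meets these rules was not counted, and nothing is read from these counts. On the log2 scale, in TIA1 KO and then TIAR KO MEF, the fold changes were 1.67 and -2.29 for Wnt10b, -0.55 and 4.14 for Rspo3, -0.21 and 2.84 for Wnt4, 1.65 and -1.62 for Msln, 0.27 and -1.32 for Cd14 (a co-receptor for lipopolysaccharide) and -1.45 and 1.11 for Tlr2. Only Wnt10b and Tlr2 passed the thresholds in both lines. Wnt4 on the second TIA1 KO array (8.64) lay just under the WT mean (8.65). Its value in TIA1 KO MEF turned to 0.30 with the processed signal and was -0.01 without TIA1 KO replicate 1. Rspo3 was well above background on neither TIA1 KO array. As a description, the direct difference TIAR KO minus TIA1 KO was -3.96 for Wnt10b, 4.69 for Rspo3, 3.05 for Wnt4, -3.28 for Msln, -1.59 for Cd14 and 2.57 for Tlr2. Since the genes were chosen for lying on opposite sides on these arrays, the difference was not tested. Of the 9 antagonists 0 met this rule. Values of single genes were not searched for outlying arrays, since each group had 2. As a whole the first TIA1 KO array stood apart, with a median raw intensity of 458.1 against 119.5 to 217.6 on the other arrays.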

How the results depend on the processing

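The increase of Sfrp4 in TIAR KO MEF was called under all 14 alternatives, with log2 fold changes from 3.23 to 6.55. In TIA1 KO MEF the values of Sfrp2 ran from 7.76 to 12.1, of Dkk3 from 4.93 to 8.42, of Dkk2 from 3.26 to 8.08, of Sfrp1 from 2.42 to 6.75 and of Sfrp4 from 1.71 to 5.48. Those of the near-background members changed sign or size too, from -0.63 to 3.25 for Frzb, -0.69 to 3.19 for Dkk1, -0.66 to 3.01 for Wif1 and 0.18 to 1.63 for Sfrp5, with the highest from the processed signal. The number of antagonists past the thresholds in TIAR KO MEF went from 1 to 2, with Sfrp2 at 1.20 (adjusted p = 0.0279) with an offset of 16 and at 1.89 (adjusted p = 0.0362) with the processed signal at the 75th percentile. In TIA1 KO MEF it went from 5 to 3 with probes well above background only, where Sfrp4 and Dkk3 were not tested, to 3 with the replicate number as a block and to 0 with the processed signal; with 1 array left out it ranged from 0 to 5 and for the other pathway genes from 0 to 30 (17 with all arrays). The 0 fell to the processed signal (0 of 66 pathway genes too) and to the omission of WT replicate 1 or WT replicate 2, with 27765, 7202 and 7415 probes at an unadjusted p under 0.05, and the 30 to that of TIA1 KO replicate 2 (21.0% of all genes); the cause was not tested. The processed signal shifted the median of all probes in TIA1 KO MEF to 1.98 and the common-median scaling to -0.68, where 11.6% of the called probes were higher against 61.6% (33.6% against 58.8% in TIAR KO MEF), and 34.9% of all genes passed in TIA1 KO MEF. The counts of 3 antagonists there stood beside 12.8% of all genes with probes well above background only and 1.61% with the replicate block. Near-background genes changed sign in TIAR KO MEF, with Frzb at -0.13, Dkk2 at -0.03 and Wif1 at 0.10 with the processed signal, Dkk3 at -0.06 in the authors' table, and, with 1 array left out, Frzb between -0.07 and 0.17 (-0.03 without TIAR KO replicate 1), Dkk1 between -0.22 and 0.04 and Sfrp5 between -0.33 and 0.15. Without 1 array the calls of Tpbg (WT replicate 1, either TIAR KO array), Notum (either WT array, TIAR KO replicate 2) and Rnf43 (TIAR KO replicate 1) were lost. Those of Tpbg and Notum were lost with the common-median scaling too (0.78 and 0.66), and with the processed signal those of Tpbg (1.25), Notum (0.84), Fzd6 (1.33, adjusted p = 0.0906) and Wisp1 (1.63, adjusted p = 0.0503).

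The replicate numbers did not pair the samples (correlation of deviations 0.078 for TIA1 KO with WT and 0.03 for TIAR KO with WT), and the replicate block gave 1 antagonist and 19 other pathway genes in TIAR KO MEF and 3 and 12 in TIA1 KO MEF (1.61% of all genes there). Slide could not be used as a block, since all arrays lay on 1 slide. Signal near background limits all statements on Sfrp5, Frzb, Dkk1 and Wif1.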
